A study of Rattus norvegicus with 8 samples.

Results

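Irf1, Tap1, Psmb8 and Rsad2, 4 genes that cells switch on in an interferon response, were chosen by symbol from a table of 4226 rat genes. They were followed through 8 RNA-seq libraries of rat nucleus pulposus cells, the cells at the soft centre of the spinal disc. Each symbol was carried by 1 protein-coding gene identifier, and all 4 genes passed the expression filter described below. In both groups endogenous SOD1, the copper-zinc superoxide dismutase of the cytosol, had been depleted by knockdown. Cells of the SOD1-K123R group (4 libraries) had then been transfected with SOD1 carrying the K123R lysine-to-arginine substitution. Cells of the SOD1-WT group (4 libraries) had received wild-type SOD1. Exposure to 10 mM lactate lasted 7 days and was shared by both groups, so no lactate-free or untransfected cells enter any value here. The table heads the SOD1-K123R columns L and the SOD1-WT columns Ctrl, letters that the labels leave unexplained, and the comparison follows the labels. The sources used here do not give how the knockdown was made, how much SOD1 each group expressed or whether the replicates were separate cultures. The p-values therefore measure the spread between these libraries, which may be technical.

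Interferons are secreted cytokines that warn neighbouring cells of infection. Their receptors signal through JAK kinases and STAT transcription factors, which bind GAS elements or, together with IRF9, ISRE elements in the promoters of target genes. IRF1 is itself an interferon target and binds ISRE-like elements of further genes, among them genes of MHC class I antigen presentation. In that pathway the immunoproteasome cuts cytosolic proteins to peptides, the transporter TAP carries the peptides into the endoplasmic reticulum, and MHC class I molecules display them at the cell surface. Disc cells are not professional antigen-presenting cells, but the class I pathway operates in nearly all nucleated cells. NF-kB, the transcription factor of inflammatory signalling, acts on several of the same promoters, Irf1 included.

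The promoter windows of the 4 genes are shown because they hold the DNA letters through which these factors are known to work. They come from RefSeq on the GRCr8 assembly, were matched by symbol (4 of 4 found) and run from 250 bases before to 50 bases after the annotated start. The sources used here do not name the build behind the deposited table. All 3 motifs were searched on both strands, namely the ISRE core (GAAA, any 2 bases, GAAA), the GAS element (TTC, any 3 bases, GAA) and an NF-kB motif (GGG, any 2 bases, TTTCC). Capitals mark the matches. The Irf1 window is chr10:38417685-38417984, plus strand. The Tap1 window is chr20:4668494-4668793, minus strand. The Psmb8 window is chr20:4656982-4657281, minus strand. The Rsad2 window is chr6:48788071-48788370, minus strand.
Irf1: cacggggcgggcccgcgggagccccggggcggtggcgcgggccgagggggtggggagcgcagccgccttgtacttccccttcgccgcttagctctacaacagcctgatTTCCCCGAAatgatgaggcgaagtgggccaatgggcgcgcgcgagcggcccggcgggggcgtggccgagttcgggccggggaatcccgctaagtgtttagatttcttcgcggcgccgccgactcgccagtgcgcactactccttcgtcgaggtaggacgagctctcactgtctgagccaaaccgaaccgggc
Tap1: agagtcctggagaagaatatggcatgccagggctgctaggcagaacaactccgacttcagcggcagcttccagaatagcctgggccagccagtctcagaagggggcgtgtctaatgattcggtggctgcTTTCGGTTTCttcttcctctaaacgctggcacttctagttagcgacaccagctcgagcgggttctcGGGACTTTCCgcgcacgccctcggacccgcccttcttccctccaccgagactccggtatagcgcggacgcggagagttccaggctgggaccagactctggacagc
Psmb8: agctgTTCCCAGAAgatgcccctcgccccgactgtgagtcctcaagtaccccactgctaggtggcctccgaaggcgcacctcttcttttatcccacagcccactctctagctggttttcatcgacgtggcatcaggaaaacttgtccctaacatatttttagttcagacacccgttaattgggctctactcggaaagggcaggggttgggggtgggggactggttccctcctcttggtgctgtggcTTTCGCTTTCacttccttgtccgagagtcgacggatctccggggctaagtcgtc
Rsad2: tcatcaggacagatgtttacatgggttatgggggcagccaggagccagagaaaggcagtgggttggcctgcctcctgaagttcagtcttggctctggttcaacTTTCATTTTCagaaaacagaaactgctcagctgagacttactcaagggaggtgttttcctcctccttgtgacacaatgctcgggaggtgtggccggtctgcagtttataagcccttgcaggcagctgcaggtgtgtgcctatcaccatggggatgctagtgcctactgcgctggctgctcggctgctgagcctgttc

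The ISRE core was found in the windows of Tap1, Psmb8 and Rsad2, in each case on the reverse strand, so that it is printed as TTTCGGTTTC, TTTCGCTTTC and TTTCATTTTC. It lay from 121 to 112 bases before the start in Tap1 and from 147 to 138 bases before it in Rsad2. In Psmb8 it spanned the start itself. The Irf1 window held no ISRE core and 1 GAS element, TTCCCCGAA, from 142 to 134 bases before the start. Psmb8 also held a GAS element (TTCCCAGAA) and Tap1 an NF-kB motif (GGGACTTTCC). Of 33469 RefSeq windows of this length, 3.92% held the ISRE core, 8.87% the GAS element and 1.53% the NF-kB motif. A match is a stretch of letters and not evidence of binding. Tap1 and Psmb8 lie next to each other in the MHC region of chromosome 20, in the RefSeq order Tap2, Psmb8, Tap1 and Psmb9, while Irf1 is on chromosome 10 and Rsad2 on chromosome 6. Psmb9, the other immunoproteasome gene of that stretch, was not analysed here.

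Values are TPM, which scale reads by transcript length and by library and so allow levels of different genes to be compared. The TPM of the table summed to between 235371 and 243393 in SOD1-K123R libraries and between 187515 and 198656 in SOD1-WT libraries, so its rows are only a share of the transcriptome, by a selection that the sources used here do not describe. Pearson correlations over the 2890 genes tested were at least 0.981 between libraries of a group and at most 0.818 across groups, and no library stood apart from its group. Of the genes tested, 244 had a log2 fold change within 0.5 of 0, so genes with little difference were scarce among the rows. TPM keep no read counts, and the depth behind each value is unknown. Of 19 nucleus pulposus markers 8 were in the table, and of 7 tested 4 rose and 3 fell. Sox9, a chondrogenic transcription factor, averaged 3.19 ± 0.500 TPM in SOD1-K123R and 0.400 ± 0.101 TPM in SOD1-WT (mean ± SD, n = 4 each, as for all means below). Among those that fell, Acan, the core protein of aggrecan, averaged 0.645 ± 0.0998 TPM in SOD1-K123R and 1.55 ± 0.419 TPM in SOD1-WT (log2 fold change -0.62), and Cdh2, which encodes N-cadherin, averaged 2.96 ± 0.451 TPM in SOD1-K123R and 9.43 ± 0.432 TPM in SOD1-WT (-1.40). The third was the carbonic anhydrase gene Car3 (-1.72). The cartilage collagen gene Col2a1 was at or below 0.08 TPM in SOD1-K123R libraries and listed at 0 in all SOD1-WT libraries.

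Leukocytes express interferon and antigen presentation genes at high levels, so their markers are given beside these results. Of 22 leukocyte markers 3 were in the table, with a summed level of 26.1 to 33.4 TPM in SOD1-K123R libraries and 8.03 to 11.3 TPM in SOD1-WT libraries. Cd68, a lysosomal protein abundant in macrophages but present in other cells, made up most of it, at 26.0 ± 3.56 TPM in SOD1-K123R and 6.89 ± 1.05 TPM in SOD1-WT. Itgax, of dendritic cells, did not pass (log2 fold change 0.04) but rose after median-of-ratios scaling (0.39, limma adjusted p = 0.00461) and after quantile normalization (0.36, limma adjusted p = 0.00684). The macrophage lysozyme gene Lyz2 read 0.59 to 1.08 TPM in SOD1-K123R libraries and was listed at 0 in 3 of 4 SOD1-WT libraries. The pan-leukocyte gene Ptprc was not analysed here. The endothelial marker Pecam1 did not exceed 0.46 TPM in any library of either group. Bulk RNA cannot separate more cells of a type from more RNA per cell, and the part of other cell types in these differences was not tested.

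All 4 genes were higher in SOD1-K123R cells, and for each the lowest SOD1-K123R library lay above the highest SOD1-WT library. Irf1, the transcription factor, reached the highest level of the set and an 11.0-fold higher mean. Tap1, a subunit of the peptide transporter, was 6.92-fold higher and Psmb8, a catalytic subunit of the immunoproteasome, 4.14-fold higher. Rsad2, which encodes the antiviral enzyme viperin, had the largest ratio of means, 34.1, over a SOD1-WT level below 1 TPM. Differences this clear were common in the table. The limma test, at a threshold of 0.05 on the Benjamini-Hochberg adjusted p, called 95.7% of 2890 genes, 44.6% higher and 51.1% lower in SOD1-K123R, and the groups did not overlap in 91.4%. That 4 of 4 passed and did not overlap is therefore near the background, and the genes are described by their levels and by the size of the difference. They were also picked with earlier results of these data known.

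**Figure D1:**
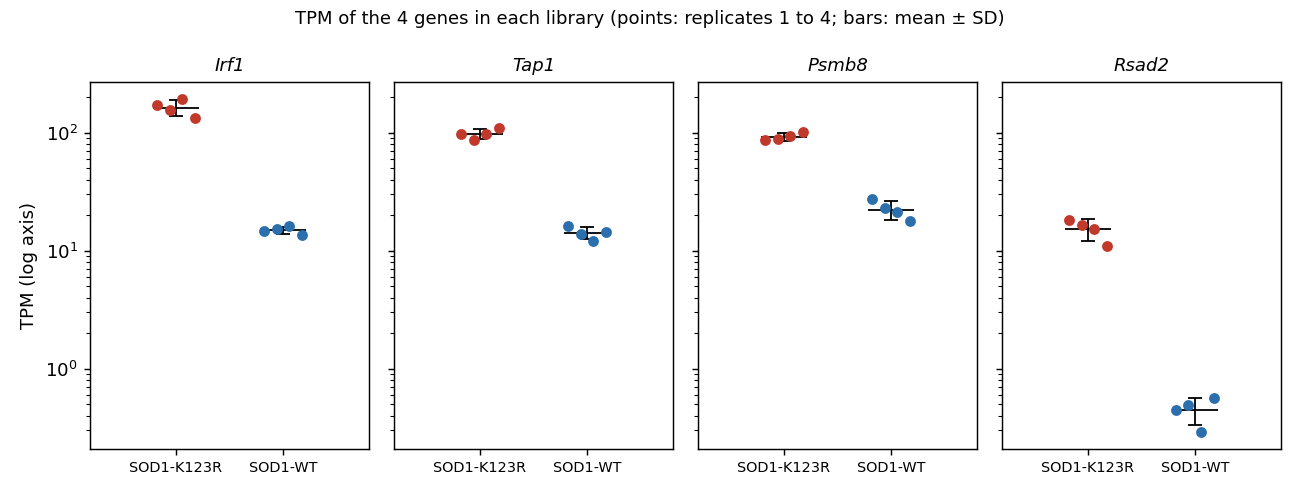
TPM of Irf1, Tap1, Psmb8 and Rsad2 on a log axis in the 4 SOD1-K123R libraries (red, left) and the 4 SOD1-WT libraries (blue, right) of each panel, with replicates 1 to 4 from left to right and bars for the mean ± SD. In every panel the red points lie above the blue ones, with the widest gap for Rsad2, whose SOD1-WT libraries read 0.29 to 0.56 TPM.

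Irf1 encodes interferon regulatory factor 1, an activator of interferon and antigen presentation genes. It read 173, 155, 193 and 133 TPM in SOD1-K123R replicates 1 to 4, against 14.6, 15.2, 16.1 and 13.5 TPM in SOD1-WT replicates 1 to 4. The SOD1-WT libraries were close together, whereas the SOD1-K123R libraries spread over 59.9 TPM with replicate 3 at the top and replicate 4 at the bottom. The means were 163 ± 25.5 TPM in SOD1-K123R and 14.9 ± 1.09 TPM in SOD1-WT. The log2 fold change, on the log2(TPM + 1) scale used throughout, was 3.36 (SE 0.11, limma adjusted p = 1.70e-10), the 15th highest of the genes tested.

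Tap1 encodes 1 of the 2 subunits of the peptide transporter. It read 98.3, 86.6, 96.6 and 109 TPM in SOD1-K123R replicates 1 to 4, against 16.1, 13.9, 12.1 and 14.4 TPM in SOD1-WT replicates 1 to 4. Replicate 4 was the highest SOD1-K123R library here, although it had been the lowest for Irf1. The log2 fold change was 2.71 (SE 0.10, limma adjusted p = 4.46e-10), which ranked 43rd.

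Psmb8 encodes the beta5i subunit, which replaces a standard catalytic subunit when immunoproteasomes form. It read 85.9, 89.2, 93.5 and 102 TPM in SOD1-K123R replicates 1 to 4, against 27.6, 22.9, 21.1 and 17.8 TPM in SOD1-WT replicates 1 to 4. Replicate 4 was thus the highest SOD1-K123R library and also the lowest SOD1-WT library. The log2 fold change was 2.02 (SE 0.12, limma adjusted p = 1.13e-08), which ranked 111th. Psmb8 had the highest level of the 4 genes in SOD1-WT and the smallest difference.

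Rsad2 encodes viperin, a radical SAM enzyme that makes a chain-terminating nucleotide and restricts many viruses. It read 18.3, 16.5, 15.4 and 10.9 TPM in SOD1-K123R replicates 1 to 4, against 0.45, 0.49, 0.29 and 0.56 TPM in SOD1-WT replicates 1 to 4. Replicate 4 was again the lowest SOD1-K123R library, as for Irf1. The log2 fold change was 3.47 (SE 0.15, limma adjusted p = 1.16e-09), which ranked 12th. With a SOD1-WT level this low the fold depends on the pseudocount: it was 4.81 on the log2(TPM + 0.1) scale.

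**Figure D2:**
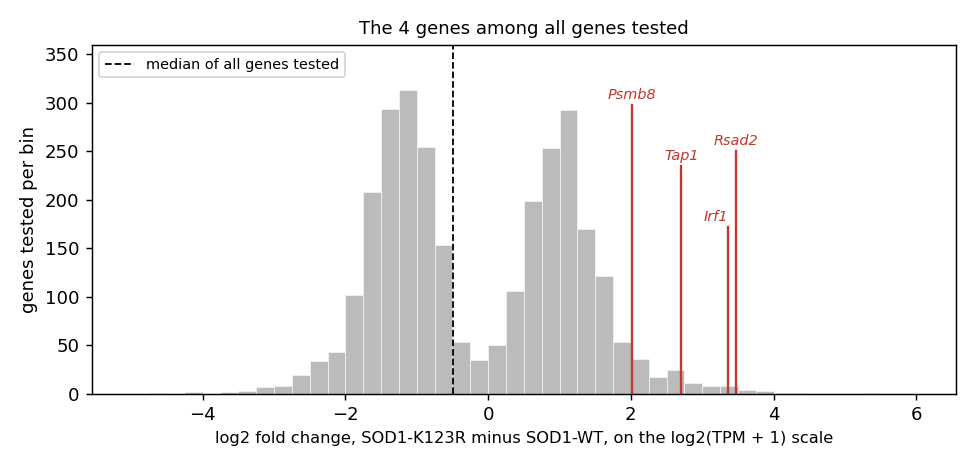
Histogram of log2 fold changes of the 2890 genes tested (x axis, SOD1-K123R minus SOD1-WT on the log2(TPM + 1) scale; y axis, genes per bin), with red lines at the 4 genes and a dashed line at the median of -0.49. Genes near 0 are few, and the 4 genes lie in the upper tail, from 2.02 for Psmb8 to 3.47 for Rsad2.

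The order of levels differed between the groups. In SOD1-K123R cells Irf1 was highest (133 to 193 TPM), Tap1 (86.6 to 109 TPM) and Psmb8 (85.9 to 102 TPM) overlapped, and Rsad2 was lowest (10.9 to 18.3 TPM). In SOD1-WT cells Psmb8 was highest (17.8 to 27.6 TPM), Irf1 (13.5 to 16.1 TPM) and Tap1 (12.1 to 16.1 TPM) overlapped, and Rsad2 was again lowest (0.29 to 0.56 TPM).

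Ratios within a library, which a rescaling of that library leaves nearly unchanged, showed whether the genes differed by unequal amounts. All 6 pairs were compared by an exact two-sided permutation test over the 70 splits of 8 libraries, whose smallest p is 0.0286, with Benjamini-Hochberg adjustment over the 6. Tap1 increased more than its neighbour Psmb8: the log2 ratio of Tap1 over Psmb8 averaged 0.08 ± 0.10 in SOD1-K123R and -0.62 ± 0.22 in SOD1-WT (exact permutation p = 0.0286, adjusted 0.0429), and the groups did not overlap. The ratio of Irf1 over Psmb8 averaged 0.80 ± 0.30 in SOD1-K123R and -0.54 ± 0.24 in SOD1-WT (exact permutation p = 0.0286, adjusted 0.0429). The ratio of Irf1 over Tap1 averaged 0.73 ± 0.31 in SOD1-K123R and 0.07 ± 0.24 in SOD1-WT, which overlapped and missed the threshold (exact permutation p = 0.0571, adjusted 0.0686).

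Ratios against Rsad2 carry its low SOD1-WT level. Psmb8 over Rsad2 averaged 2.54 ± 0.40 in SOD1-K123R and 4.00 ± 0.30 in SOD1-WT, and Tap1 over Rsad2 averaged 2.62 ± 0.41 in SOD1-K123R and 3.38 ± 0.12 in SOD1-WT (exact permutation p = 0.0286, adjusted 0.0429, for each). Irf1 over Rsad2 averaged 3.35 ± 0.22 in SOD1-K123R and 3.45 ± 0.21 in SOD1-WT, a difference of -0.11 that did not pass (exact permutation p = 0.571, adjusted 0.571). Without the pseudocount that difference was -1.66 and passed (exact permutation test, adjusted p = 0.0343), so whether Irf1 and Rsad2 moved by like amounts depends on how low values are treated.

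**Figure D3:**
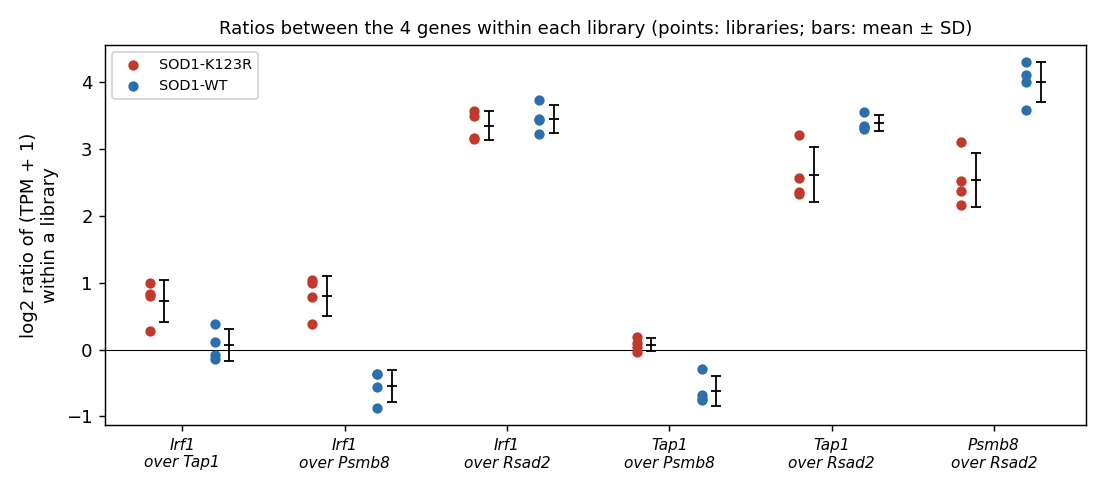
Log2 ratio of (TPM + 1) within each library (y axis) for the 6 pairs of genes (x axis), with SOD1-K123R libraries in red on the left, SOD1-WT libraries in blue on the right and bars for the mean ± SD. Red and blue points are apart for Irf1 over Psmb8, Tap1 over Psmb8, Tap1 over Rsad2 and Psmb8 over Rsad2, and overlap for Irf1 over Tap1 and Irf1 over Rsad2.

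The profiles most like each gene were sought among all genes tested with a symbol, by the root-mean-square difference of log2(TPM + 1) over the 8 libraries after each gene's mean was subtracted. For Irf1 they were Bhlhe40, a clock and stress repressor (0.13 log2 units), Ddit3, the stress factor CHOP (0.14), and Gdf15, a stress cytokine (0.16). For Tap1 they were the adenosine receptor gene Adora2a (0.13), the heme-degrading enzyme gene Hmox1 (0.14) and the phosphatase gene Phospho1 (0.15). For Psmb8 they were Cdkn1a, the cell cycle inhibitor p21 (0.11), Ftl1, the ferritin light chain (0.13), and Epha2, an ephrin receptor (0.16). For Rsad2 they were Bhlhe40 (0.14), Irf1 itself (0.19) and Insig1, a brake on sterol synthesis (0.20). Irf1 ranked 2nd by likeness to Rsad2, whereas Rsad2 ranked 8th by likeness to Irf1. Psmb8 ranked 65th by likeness to Tap1, its neighbour on the chromosome, and 97th by likeness to Irf1. Because the groups were tight and far apart, likeness by this measure mostly restates a similar log2 fold change. That value was 3.36 for Irf1, 3.32 for Bhlhe40, 3.37 for Ddit3 and 3.32 for Gdf15. Shared control of these genes was not tested.

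Genes of the wider pathway were taken from 8 lists that name 253 genes, of which 57 were in the table and 50 were tested. Without Irf1, Tap1, Psmb8 and Rsad2, 46 were tested, of which 32 rose, 11 fell and 3 did not pass. Their median log2 fold change was 0.70, against -0.49 over all genes tested. Each list count below stands against 44.6% higher and 51.1% lower over all genes tested. The median of all genes depends on the filter: with a minimum mean of 5 TPM, which 1896 genes reached, it was 0.27, with 948 higher and 897 lower, against 0.87 over the 39 pathway genes left, Irf1, Tap1, Psmb8 and Rsad2 included. Interferon genes and interferon-induced chemokines such as Cxcl10 (16 listed) were not among the rows and were not analysed here, nor were the interferon receptors and JAK kinases.

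Class I presentation genes mostly rose. Of 9 tested members of that list, Tap1 and Psmb8 included, 7 rose, 1 fell and 1 did not pass (median log2 fold change 0.87). Over all genes tested 44.6% were higher and 51.1% lower. Tap2, the partner subunit of Tap1, read 87.0, 88.1, 93.1 and 92.3 TPM in SOD1-K123R replicates 1 to 4, against 19.1, 17.7, 15.4 and 16.9 TPM in SOD1-WT replicates 1 to 4. Its groups did not overlap, and its log2 fold change was 2.32 (SE 0.09). Tapbp, which encodes tapasin, the bridge between TAP and class I molecules, averaged 179 ± 13.4 TPM in SOD1-K123R and 68.3 ± 4.04 TPM in SOD1-WT (log2 fold change 1.37, SE 0.08). Tap1, Tap2, Tapbp and Psmb8 are only some of the genes of peptide supply and loading, and their increases do not stand for the whole pathway. Tap1 and Psmb8 were picked with earlier results of these data known.

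The other increases of the list were smaller. Calr, the chaperone calreticulin, averaged 2128 ± 76.2 TPM in SOD1-K123R and 1405 ± 126 TPM in SOD1-WT (log2 fold change 0.60), a call lost after quantile normalization (0.01, limma adjusted p = 0.909). Fcgrt, the neonatal Fc receptor with a class I-like fold, had a log2 fold change of 0.87. Of the class I heavy chain genes of the rat RT1 complex, 1 identifier of RT1-T24-4 rose (log2 fold change 0.63), RT1-M3-1 did not pass (0.14; 18.8 ± 2.54 TPM in SOD1-K123R and 17.0 ± 2.46 TPM in SOD1-WT) and RT1-T24-1 fell (-1.98). The other identifier of RT1-T24-4 lay below the filter and was lower in SOD1-K123R (0.11 ± 0.09 TPM) than in SOD1-WT (0.39 ± 0.09 TPM). RT1-M3-1 rose once libraries were scaled by the median of ratios, by a log2 fold change of 0.59 (limma adjusted p = 0.00238), and the list median was then 1.35. After quantile normalization 6 of 9 rose, with a list median of 0.78. The median of all genes tested was -0.14 after median-of-ratios scaling and -0.26 after quantile normalization.

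A further 9 rows carried antigen presentation terms but no symbol, so the list did not count them, and most are described in the table as RT1 class I loci. They were found after the table had been seen. Their summed level was 472 ± 28.5 TPM in SOD1-K123R and 266 ± 29.5 TPM in SOD1-WT. Of 8 tested all 8 rose, by log2 fold changes of 0.39 to 1.26, and 7 of them kept the call in each fit that left out 1 library. The exception, described as locus A3, had a log2 fold change of 0.39 and lost its call without any 1 of 4 libraries, SOD1-K123R replicate 2 or 3 or SOD1-WT replicate 1 or 3 (0.29 and limma adjusted p = 0.0910 without SOD1-K123R replicate 2). The row described as RT1 class Ia locus A2, a classical heavy chain that presents TAP-dependent peptides, averaged 92.4 ± 7.71 TPM in SOD1-K123R and 44.4 ± 6.11 TPM in SOD1-WT (log2 fold change 1.05). The row described as locus A1 averaged 82.1 ± 3.40 TPM in SOD1-K123R and 57.0 ± 5.08 TPM in SOD1-WT (0.52). RT1 genes are close copies of each other, and reads that match several copies make their TPM uncertain. B2m, the light chain of class I molecules, was not analysed here.

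Other proteasome genes were scarce, and those present went against Psmb8. Of 45 listed genes of the standard proteasome and its assembly only 2 were in the table, an activator and an assembly chaperone, and both fell. Of all genes tested 51.1% were lower as well. Psme3, the nuclear activator PA28-gamma, averaged 20.5 ± 0.579 TPM in SOD1-K123R and 77.2 ± 2.10 TPM in SOD1-WT (log2 fold change -1.86, SE 0.08). Psmg1, an assembly chaperone, averaged 22.5 ± 1.82 TPM in SOD1-K123R and 67.2 ± 3.78 TPM in SOD1-WT (log2 fold change -1.54, SE 0.09). The only class II gene in the table, the invariant chain gene Cd74, did not exceed 0.53 TPM in any library of either group and was not tested.

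IRF genes and their corepressors were higher in SOD1-K123R. The 6 transcription factor genes reported here rose (median log2 fold change 1.44), a count that does not cover the whole list. Besides Irf1, Irf7, a driver of type I interferon genes, averaged 12.4 ± 2.67 TPM in SOD1-K123R and 4.86 ± 0.779 TPM in SOD1-WT (log2 fold change 1.18). Irf2, which can oppose IRF1, had a log2 fold change of 0.87 and Irf8, a factor of myeloid cells, of 0.59. The corepressor genes Irf2bp2 and Irf2bpl had log2 fold changes of 1.74 and 1.70.

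Interferon-stimulated effectors were divided. Of 20 tested genes 11 rose, 8 fell and 1, Ifitm10, did not pass (log2 fold change 0.25; median of the list 0.46). Ifitm10 rose after median-of-ratios scaling (0.56, limma adjusted p = 0.0147; median of the list 0.93), after quantile normalization (0.51, limma adjusted p = 0.0276) and without SOD1-K123R replicate 3 (0.43, limma adjusted p = 0.0430). After quantile normalization 11 genes of the list rose and 8 fell, with a list median of 0.50. After Rsad2 the largest increase was that of Isg20, an antiviral exonuclease, which averaged 19.2 ± 3.92 TPM in SOD1-K123R and 4.20 ± 0.726 TPM in SOD1-WT (log2 fold change 1.95). Dtx3l (1.53), a ubiquitin ligase, Slfn2 (1.46), a Schlafen protein, Helz2 (1.22), a helicase, and Eif2ak2 (1.14), the double-stranded RNA sensor kinase PKR, also rose. So did Trim25 (1.08), a ubiquitin ligase of RIG-I signalling, Parp10 (0.73), an ADP-ribosyltransferase, the immunity-related GTPase gene Igtp (0.71) and Ogfr (0.62), an opioid growth factor receptor. Gbp2, a guanylate-binding GTPase, had a log2 fold change of 0.30, a call that was lost after quantile normalization (limma adjusted p = 0.0652) and without any 1 of 5 libraries.

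Several canonical interferon-induced genes were lower in the same cells. Ifit3, of the family that binds viral RNA, read 0.42, 0.50, 0.10 and 0.38 TPM in SOD1-K123R replicates 1 to 4, against 2.16, 4.05, 3.88 and 3.37 TPM in SOD1-WT replicates 1 to 4, and its groups did not overlap (log2 fold change -1.68). Ifit2 of the same family averaged 2.06 ± 0.521 TPM in SOD1-K123R and 4.50 ± 1.12 TPM in SOD1-WT (log2 fold change -0.84). Gbp7, a guanylate-binding protein, averaged 9.63 ± 1.37 TPM in SOD1-K123R and 39.3 ± 10.4 TPM in SOD1-WT (log2 fold change -1.90). Mnda, of the family of interferon-inducible nuclear DNA-binding proteins, fell most of the list, to 2.77 ± 0.608 TPM in SOD1-K123R against 20.7 ± 4.69 TPM in SOD1-WT (-2.51). The remaining decreases were those of Samd9l (-1.04), a growth-restricting antiviral factor, Pml (-1.01), the scaffold of nuclear bodies, the GTPase gene Irgm (-0.80) and Gbp6 (-0.66).

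Rsad2 thus stood beside Ifit genes that moved the other way, although both are classed as interferon-stimulated. Below the expression filter were Mx2, listed at 0 in all SOD1-K123R libraries and at 0.10 to 0.18 TPM in SOD1-WT libraries, Ifit1bl (0.203 ± 0.0629 TPM in SOD1-K123R and 0.543 ± 0.0704 TPM in SOD1-WT) and Herc6. Guanylate-binding, immunity-related GTPase, Ifit and Schlafen genes also have close copies and carry the same uncertainty.

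**Figure D4:**
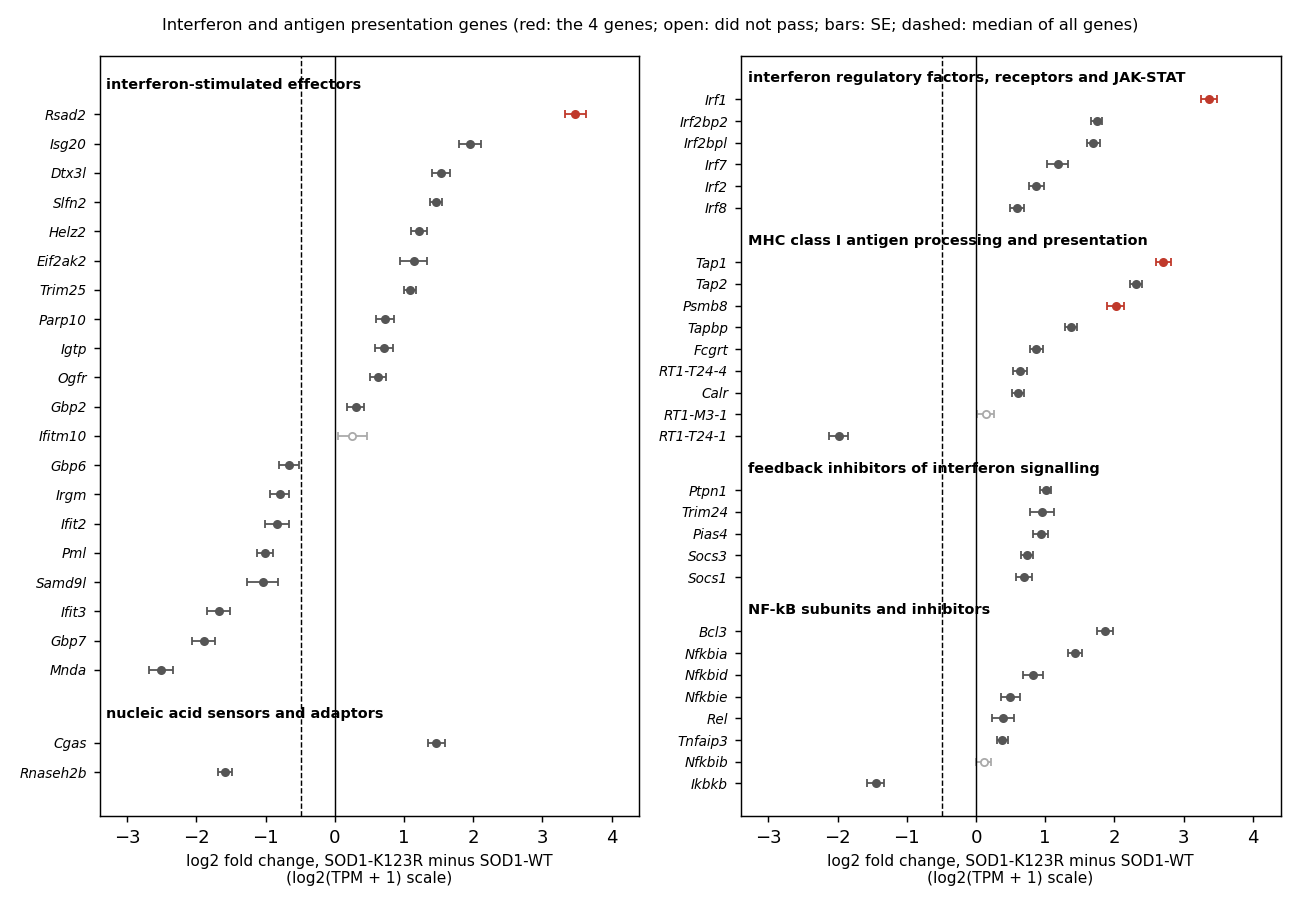
Log2 fold change (x axis, SOD1-K123R minus SOD1-WT on the log2(TPM + 1) scale, bars SE) of the tested genes reported here from 6 lists, with Irf1, Tap1, Psmb8 and Rsad2 in red, genes that did not pass open and the median of all genes tested dashed. Effectors run from 3.47 for Rsad2 to -2.51 for Mnda, whereas the IRF genes shown, peptide loading genes and feedback inhibitors lie to the right of 0.

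Of 14 listed feedback inhibitors of interferon signalling 6 were in the table, and 5 of 5 tested rose (median log2 fold change 0.94). Over all genes tested 44.6% were higher. Socs3, which blocks JAK kinases, averaged 213 ± 17.1 TPM in SOD1-K123R and 127 ± 8.49 TPM in SOD1-WT (log2 fold change 0.74), and Socs1, a blocker of interferon-gamma signalling, averaged 1.98 ± 0.184 TPM in SOD1-K123R and 0.845 ± 0.142 TPM in SOD1-WT (0.69). The phosphatase gene Ptpn1 (1.01), the SUMO ligase gene Pias4 (0.94) and Trim24 (0.96) rose as well. Of the nucleic acid sensors, Cgas, the cytosolic DNA sensor, averaged 9.30 ± 1.39 TPM in SOD1-K123R and 2.71 ± 0.166 TPM in SOD1-WT (log2 fold change 1.47). Rnaseh2b, a subunit of the enzyme that removes RNA from DNA, averaged 8.23 ± 0.777 TPM in SOD1-K123R and 26.7 ± 1.60 TPM in SOD1-WT (-1.59). Tlr3, a receptor for double-stranded RNA, lay below the filter at 0.17 to 0.46 TPM in SOD1-K123R libraries and 0.75 to 2.10 TPM in SOD1-WT libraries.

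NF-kB genes are given because NF-kB acts on several promoters of this pathway. Of 8 tested 6 rose, 1 fell and 1 did not pass (median log2 fold change 0.44). Bcl3, a nuclear cofactor of NF-kB, averaged 20.7 ± 0.631 TPM in SOD1-K123R and 5.04 ± 0.873 TPM in SOD1-WT (log2 fold change 1.86), and the inhibitor genes Nfkbia (1.43), Nfkbid (0.83), Nfkbie (0.49) and Tnfaip3 (0.38) also rose. Ikbkb, the kinase that activates NF-kB, fell (-1.45), and Nfkbib did not pass (0.11). After median-of-ratios scaling Nfkbib rose (0.59, limma adjusted p = 0.00387), which made 7 of 8 higher with a list median of 0.90. After quantile normalization 6 of 8 rose, with a list median of 0.56. Rel (0.39), a subunit near the filter, was called, but its adjusted p with the replicate number as a block was 0.0565 and the call was lost without any 1 of 6 libraries.

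Annotation in the table gave a wider count, chosen after the table had been seen. Irf1 carried terms for interferon and for defense response to virus, Rsad2 the viral term, and Tap1 and Psmb8 terms for antigen processing and presentation. Of 20 tested genes with antigen processing and presentation terms 16 rose, 2 fell and 2 did not pass (median log2 fold change 0.84). These 16 include Tap1, Psmb8 and the 8 rows without a symbol given above, most of them described as RT1 class I loci. Of 35 tested genes with a term naming interferon 18 rose, 14 fell and 3 did not pass (median 0.30), and of 15 with defense response to virus 9 rose, 5 fell and 1 did not pass (0.71). These counts include Irf1, Tap1, Psmb8 and Rsad2 and stand against 44.6% higher and 51.1% lower over all genes tested.

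ISRE letters were found in genes that moved either way. Of 38 other tested pathway genes with a RefSeq window, 15 held the ISRE core, and of these 11 rose and 4 fell. Over all 46 other tested pathway genes, with or without a window, 32 rose and 11 fell. Among 1960 tested genes with 1 window each, 67 (3.42%) held it, of which 38 rose (56.7%), 25 fell and 4 did not pass, against 44.0% that rose over the 1960. Their median log2 fold change was 0.56, against -0.58 over the 1960. These 67 include 18 genes of the set and of the pathway lists. Of the other 49, 24 rose (49.0%), 21 fell and 4 did not pass, with a median of 0.32. Over the 1918 genes with a window outside the set and the lists 43.3% rose, with a median of -0.62. Because few genes lie near 0, such medians can shift far with a small change in the share that rose. The NF-kB motif gave a similar share: of 32 genes that held it, 18 rose (56.25%), 13 fell and 1 did not pass (median 0.45). Outside the set and the pathway lists 26 genes held it, of which 13 rose, 12 fell and 1 did not pass. The GAS element was the only one of the 3 motifs, as spelled for this search, that matched in the Irf1 window. It was held by 129 of the 1960, of which 52 rose (40.3%), 71 fell and 6 did not pass (median -0.67). The 30-base stretches around the core are shown for the 3 genes of the set that hold one, for Tap2 and Isg20, which rose, and for Ifit3 and Gbp7, which fell, chosen after their values were seen. Capitals mark the ISRE core, which reads GAAA or TTTC first according to its strand. In GRCr8 they lie at chr20:4668645-4668674 (minus strand) for Tap1, chr20:4657016-4657045 (minus) for Psmb8, chr6:48788248-48788277 (minus) for Rsad2, chr20:4652318-4652347 (minus) for Tap2, chr1:142239957-142239986 (plus) for Isg20, chr1:241527272-241527301 (plus) for Ifit3 and chr2:233948838-233948867 (plus) for Gbp7.
Tap1: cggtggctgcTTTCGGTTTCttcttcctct
Psmb8: gtgctgtggcTTTCGCTTTCacttccttgt
Rsad2: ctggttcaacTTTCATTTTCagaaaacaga
Tap2: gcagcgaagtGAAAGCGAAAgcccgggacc
Isg20: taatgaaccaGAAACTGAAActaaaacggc
Ifit3: tttaagtctgTTTCAGTTTCtagtttccac
Gbp7: gcctttgtagTTTCAATTTCagttctctgt

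The letters in the middle of the core differed from gene to gene, and a core was present both in Rsad2 and Tap2, which rose, and in Ifit3 and Gbp7, which fell.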

How the data were processed

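The deposited file is a single table of TPM, made by the authors with RSEM per the file name, with gene identifiers, symbols, biotypes and annotation per the file headers. DESeq2 is named in the submitters' processing notes with no stated role. No source used here names the aligner, build or annotation. Because TPM hold no counts, no count test and no counting interval was used. Libraries were grouped by title.

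The test covered 2890 of 4226 genes, those whose TPM averaged 1 or more, on log2(TPM + 1). It used limma 3.58.1 in R 4.3.3 (lmFit and trended eBayes) for SOD1-K123R minus SOD1-WT, two-sided, with Benjamini-Hochberg adjustment over all genes tested and a threshold of 0.05. The procedure was run on simulated data in which only a small share of genes differed. That setting is unlike this table, where most genes were called, so it does not give the error rate here. Replicate numbers were not used as a block. Named are the 4 genes, every tested gene of the pathway lists that is reported here, the 3 nearest profiles of each gene, and examples from the marker and proteasome lists. Of the transcription factor list 2 genes are not reported here and enter no list count. The members, lists and tests were chosen with earlier results of these data known. Library identifiers run in 1 unbroken series per group, so handling and group cannot be told apart. Alternatives were another pseudocount, filters, scalings, no trend, a replicate block and leaving out each library.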

Additional observations from a re-analysis of the deposited data

Results flagged for a closer look

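Among 120 groups of 4 libraries checked, for the 4 genes and the 56 others named, 3 held a library far from the rest of its group, where chance gives about 1 in 20. None of the 3 concerned Irf1, Tap1, Psmb8 or Rsad2. For Tnfaip3 the library was SOD1-WT replicate 4, at 45.4 TPM beside 41.5 to 41.8 TPM for its fellow replicates. For Ikbkb it was SOD1-K123R replicate 3, at 10.9 TPM beside 15.8 to 16.7 TPM, and for Insig1 it was SOD1-K123R replicate 4, at 493 TPM beside 574 to 587 TPM.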

How the results depend on the processing

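Irf1, Tap1, Psmb8 and Rsad2 kept their direction and their call under each alternative run. Without 1 library their log2 fold changes ranged from 3.28 to 3.46, 2.64 to 2.77, 1.92 to 2.12 and 3.38 to 3.62. Median-of-ratios scaling moved the median of all genes tested by 0.35, to -0.14, and the 4 genes to 3.82, 3.17, 2.48 and 3.73. The replicate block changed no call of the 4 genes, whose highest adjusted p was 2.66e-06 in limma, and left 2743 genes passing. Same-numbered libraries did not deviate in the same direction (correlations of -0.35 to 0.05). These values show no pairing by number but cannot exclude one, since differently numbered libraries were not compared. At a mean of at least 5 TPM, 897 genes and 6 pathway genes were lower (1476 and 11 at 1 TPM). Higher were 948 genes and 31 pathway genes (1289 and 36 at 1 TPM). Over all genes the lower count thus shrank more than the higher count, and the median moved from -0.49 to 0.27. With annotation terms in place of the lists, an alternative chosen after seeing the data, 18 were lower. Irf1 over Rsad2 differed by -1.37 with a pseudocount of 0.1 and by -1.66 with none. Without 1 library 2726 to 2770 genes passed, and 45 to 47 of the pathway genes. TPM keep no depth, which limits what can be said of Rsad2 in SOD1-WT and of other genes near the filter.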

Other observations

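Outside the lists, genes with interferon or antigen presentation terms in the table included Cd274, the immune checkpoint ligand PD-L1, an interferon-induced surface protein. It read 5.77, 4.23, 4.13 and 3.54 TPM in SOD1-K123R replicates 1 to 4, against 0.69, 0.84, 1.04 and 0.79 TPM in SOD1-WT replicates 1 to 4, so the groups did not overlap (log2 fold change 1.55, limma adjusted p = 3.46e-07). Nub1, an interferon-inducible protein that lowers NEDD8 levels, averaged 76.4 ± 3.53 TPM in SOD1-K123R and 29.2 ± 2.69 TPM in SOD1-WT. Unc93b1, which brings nucleic acid-sensing Toll-like receptors to endosomes, averaged 34.1 ± 5.12 TPM in SOD1-K123R and 17.8 ± 1.48 TPM in SOD1-WT. These genes were chosen after their values were seen, and each of them rose. Terms for interferon, defense response to virus or antigen presentation were carried by 62 tested genes, within the lists or outside them. Of these 39 rose, 18 fell and 5 did not pass.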
